A study of Homo sapiens with 8 samples.

Results

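The 46 genes described here encode core splicing factors, the SR (serine/arginine-rich) proteins and the hnRNPs (heterogeneous nuclear ribonucleoproteins). They were chosen by name from a list compiled from general knowledge, with earlier results of these data known. Each was matched to the row of the count table with that gene name, and they make up 46 of the 78691 genes in the table. By role they are 10 SR proteins, 15 hnRNPs, 7 subunits of the SF3A and SF3B complexes, 3 proteins specific to the U1 or U2 particle, 7 Sm ring proteins, 2 PTB (polypyrimidine tract binding) proteins and 2 U2AF subunits. RNA was sequenced from 4 groups of 2 libraries each. The AdPC (prostate adenocarcinoma) side was C4-2B, a castration-resistant line, transduced with lentivirus that was empty (control) or held human MYCL, a MYC family transcription factor, under the EF1A promoter together with EGFP. The NEPC (neuroendocrine prostate cancer) side was NCI-H660, which received a non-targeting shRNA (shCtrl) or shRNA against MYCL (shMYCL). The study's design text names an adenoviral vector for the knockdown, while its treatment protocol speaks of transduced cells collected once expression or knockdown was stable. Each direction of MYCL change was thus studied in 1 cell line with its own vector system. The line, the vector, and the direction and size of the change cannot be told apart. The comparisons ask what happened to the RNA of these splicing factors when MYCL was raised in AdPC cells and when it was lowered in NEPC cells.

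Splicing removes introns from pre-mRNA in the spliceosome, which assembles from the U1, U2, U4/U6 and U5 particles. Each of these RNAs except U6 sits in a ring of Sm proteins. U2AF binds the polypyrimidine tract and the 3′ splice site, and SF3A and SF3B hold the U2 particle on the branch site. SR proteins mostly bind exons and favour their inclusion, many hnRNPs coat nascent RNA and often act against splice site use, and PTB proteins repress exons, with PTBP1 in most cells and PTBP2 in neurons. MYC family factors are known to raise the RNA of several splicing factors in other settings.

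The targeted gene followed the labels. In C4-2B cells, MYCL counts were 371 and 320 for the control and 65524 and 70253 for overexpression. In NCI-H660 cells they were 1863 and 1602 for shCtrl and 165 and 198 for shMYCL. Luminal prostate genes (KLK3 and 6 others) summed to between 1518 and 2319 TPM in the C4-2B libraries and to at most 2.69 TPM in the NCI-H660 ones, and neuroendocrine genes (CHGA and 6 others) to at most 7.32 TPM and at least 579.8 TPM, which matched the labelled lines. The 5 fibroblast markers summed to between 0.202 and 2.33 TPM in every library, and DCN was at 0 in all 8. Library totals ran from 15177071 to 32344170 counts, and the control C4-2B libraries were the deepest, with 32344170 and 23489171 counts against 18278753 and 18090296 with MYCL. The smallest count of any of the 46 genes in any library was 277, in PTBP2, so none was near the limit of detection, and all 46 passed the filter on low counts in every comparison. The labels call the control C4-2B libraries biological replicates and number the rest, but do not say whether they came from separate cultures, so p-values measure the spread between these libraries, which may be technical. An exact two-sided permutation test of one gene over 2 and 2 libraries has a smallest p of 0.33, so every call below relies on edgeR's pooling of the spread across genes.

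On the scale of TPM, which divides by a length for each gene, levels of different genes can be compared. That length was not the same in every library, so TPM changes between libraries are not changes of counts alone. The 46 genes summed to 12698 and 12136 TPM without and 8885 and 8627 TPM with MYCL overexpression in C4-2B cells. The sum was 20807 and 18978 in the shCtrl and 19825 and 21668 in the shMYCL NCI-H660 libraries, whose ranges overlapped. The hnRNPs were the most abundant role in every library, with 7065 and 6783 summed TPM in control C4-2B and 4508 and 4368 in MYCL-overexpressing cells. HNRNPA1, a nuclear RNA-binding protein that shuttles to the cytoplasm, had the highest level of the 46 genes, with 1918 and 1878 TPM in control C4-2B and 2549 and 2334 TPM in shCtrl NCI-H660 libraries. HNRNPA2B1, its close relative, came next with 975 and 949.8 and then 2478 and 2086 TPM. In NCI-H660 the shCtrl values of these 2 genes overlapped, so their order there was not separated by the spread. PTBP2 had the lowest level, with 9.66 and 8.10 TPM in control C4-2B and 18.7 and 14.5 TPM in shCtrl NCI-H660 libraries, under its paralog PTBP1 at 86.1 and 88.6 and 216 and 208 TPM. Thus in both lines, PTBP1 stood above PTBP2.

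**Figure D1:**
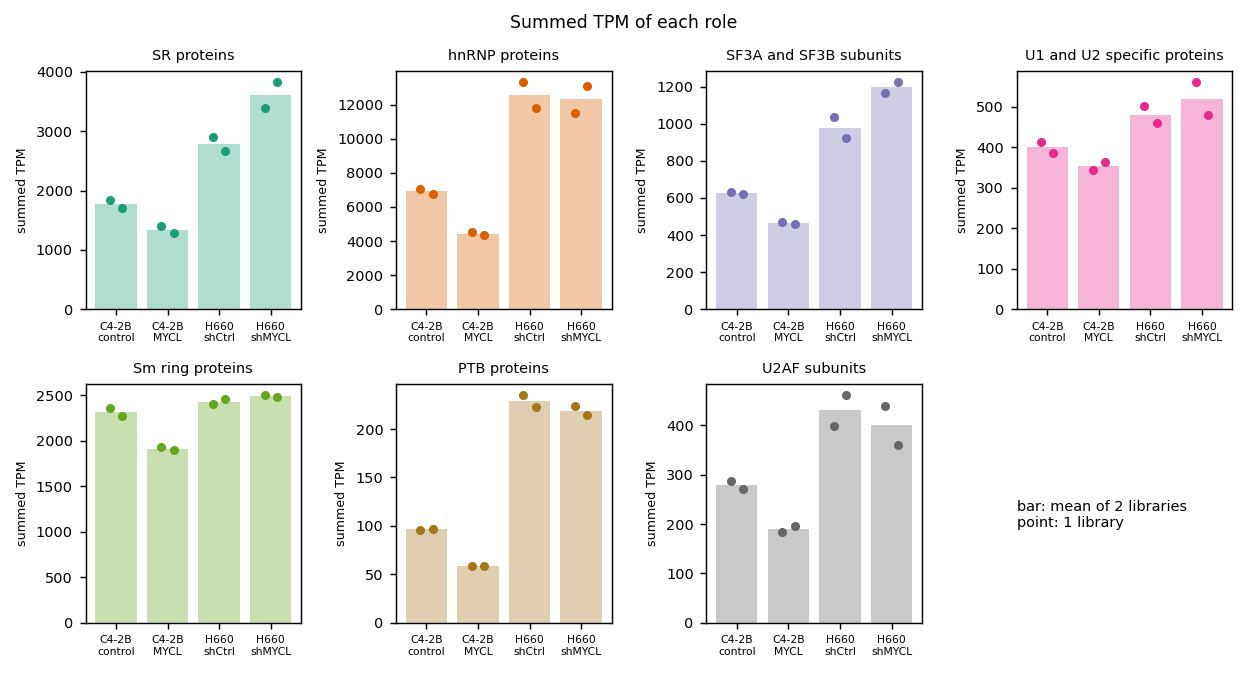
Summed TPM (vertical axis, from 0) of the genes of each role in the 4 groups (horizontal axis), with bars for the mean of 2 libraries and points for single libraries. In C4-2B, the hnRNP sum was 7065 and 6783 in the control and 4508 and 4368 in the MYCL libraries, and in NCI-H660 the SR sum was 2906 and 2659.6 in the shCtrl and 3398 and 3830.0 in the shMYCL libraries.

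In C4-2B cells, MYCL overexpression was accompanied by lower RNA of most of these splicing factors. Of the 46 genes, 30 fell and 0 rose at an adjusted p under 0.05 by edgeR's quasi-likelihood test, against a background of 17.4% of the 16866 genes tested that fell and 17.6% that rose. At an unadjusted p under 0.05, 31 were lower and 0 higher, and DESeq2 called 29 lower and 0 higher. With a log2 fold change of at least 0.5 in size also required, 12 fell and 0 rose, against 8.12% and 11.8% of all genes. The median log2 fold change of the 46 genes was −0.33, and that of all genes tested was −0.0017. Limma on log2(TPM + 1), a scale with an all-gene median of −0.14, called 37 of the 46 lower and 0 higher. The share of all genes called on that scale is not given here, so this count has no background. The shares of counts taken by the 46 genes were 1.52% and 1.46% in the control and 1.12% and 1.09% in the MYCL libraries. In bulk RNA, a smaller share of cells that express a gene and less of its RNA per cell cannot be told apart.

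Every hnRNP fell. All 15 passed the test, with log2 fold changes from −0.28 (HNRNPA0) to −1.03 (HNRNPM) and a median of −0.50, and 7 of them fell by at least 0.5. HNRNPM (ENSG00000099783.14, chromosome 19, 8444767 to 8489114, plus strand), which binds GU-rich RNA and regulates alternative exons, had normalized levels of 424 and 369 CPM (counts scaled to a common library size, with TMM factors fitted within the line) in the control libraries and 198 and 191 CPM in the MYCL libraries. Its groups did not overlap, and the log2 fold change was −1.03 (SE 0.08, adjusted p = 6.73e-05), a fold of 0.490. HNRNPAB (ENSG00000197451.13, chromosome 5, 178204533 to 178211163, plus strand), an RNA-binding protein of the A/B family, had 199 and 189 CPM in the control and 112 and 116 CPM in the MYCL libraries. Here too the groups stood apart, with a log2 fold change of −0.77 (SE 0.07, adjusted p = 0.000119). HNRNPA2B1 (ENSG00000122566.24, chromosome 7, 26171151 to 26201529, minus strand), an abundant packaging protein of nascent transcripts, had 1179.8 and 1124 CPM in the control and 722 and 690.4 CPM in the MYCL libraries. It fell by a log2 fold change of −0.71 (SE 0.07, adjusted p = 0.000172), both MYCL libraries lying under both controls. HNRNPU (ENSG00000153187.22, chromosome 1, 244840638 to 244864560, minus strand), the scaffold attachment factor that binds chromatin and RNA, had 761 and 722 CPM in the control and 469 and 446 CPM in the MYCL libraries. Its log2 fold change was −0.70 (SE 0.07, adjusted p = 0.000194), again without overlap. The other hnRNPs that fell by at least 0.5 were HNRNPA3 with −0.57, HNRNPH1, which binds G-runs, with −0.54 and HNRNPDL with −0.50. The most abundant of the class, HNRNPA1, fell less, with a log2 fold change of −0.30 (SE 0.07, adjusted p = 0.00801). With a library left out, HNRNPA0 and HNRNPA1 lost their calls without either control library, and HNRNPC lost it without control replicate 1, which left 12 of the 15 called without control replicate 1 and 13 without control replicate 2. HNRNPA0 also lost its call on log2(TPM + 1) centred on each library's median. Exons of HNRNPU share 19.0% and those of HNRNPA2B1 12.5% of their bases with genes on the opposite strand, and reads of the strands cannot be told apart unless counting used strand.

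Promoter sequence is shown for the hnRNPs because MYC family proteins bind the E-box CACGTG, which reads the same on both strands. A promoter entry was found in RefSeq (GRCh38.p14) for 42 of the 46 genes, and not for SRSF2, HNRNPA1, SF3B3 and SNRPD1. CACGTG lay in the 250 bases before the most upstream start site in 5 of the 42 (11.9%), and in 1764 of all 27305 promoters (6.46%). Windows of 30 bases around each match are given 5′ to 3′, with the motif in capitals.
HNRNPM promoter, chr19:8444921-8444950, plus strand: gttgcgtcgggtCACGTGggcgcgcaggcg
HNRNPA3 promoter, chr2:177212711-177212740, plus strand: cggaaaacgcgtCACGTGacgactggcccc
HNRNPDL promoter, chr4:82430572-82430601, minus strand: ggagcccgagacCACGTGggcaggaaaagg
HNRNPD promoter, chr4:82374001-82374030, minus strand: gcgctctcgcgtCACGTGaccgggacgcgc
SF3B1 promoter, chr2:197435119-197435148, minus strand: tggcagttctgtCACGTGtcacccgacgga
The motif began 42 bases before the start site in HNRNPM, 71 in HNRNPA3, 127 in HNRNPDL, 27 in HNRNPD and 43 in SF3B1. In GENCODE 44, the windows of HNRNPM and HNRNPA3 lay in an exon of the gene, that of HNRNPD in an intron, and those of HNRNPDL and SF3B1 upstream of the gene. By edgeR, the 4 hnRNPs with the motif had log2 fold changes from −0.49 to −1.03 with MYCL, while SF3B1 had 0.03. On log2(TPM + 1), SF3B1 was called lower. Of the other 11 hnRNPs, which also fell, 10 had a promoter entry without the motif in this window. No binding of MYCL was measured in these libraries.

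SR proteins were lower in part. In MYCL-overexpressing C4-2B cells, 4 of the 10 passed the test, 0 rose, and their median log2 fold change was −0.18. SRSF1 (ENSG00000136450.13, chromosome 17, 58000919 to 58007346, minus strand), the founding SR protein, which favours exon inclusion and also acts in translation, had 490.1 and 423 CPM in the control and 213 and 230.1 CPM in the MYCL libraries. Its log2 fold change of −1.04 (SE 0.09, adjusted p = 8.49e-05) was the largest fall of the 46 genes, though its exons share 32.7% of their bases with another annotated gene on the same strand. The other SR proteins that fell were SRSF2 with a log2 fold change of −0.49 (SE 0.07, adjusted p = 0.000995), SRSF10, a repressor of splicing when dephosphorylated, with −0.43 (SE 0.08, adjusted p = 0.00259), and SRSF7 with −0.25 (SE 0.08, adjusted p = 0.0287). SRSF7 lost its call without either control library or without MYCL replicate 2, and also on centred log2(TPM + 1). Both SRSF7 and SRSF10 lost theirs on log2(TPM + 1) without a filter on low values. The 6 not called had log2 fold changes from −0.20 (SRSF5) to 0.02 (SRSF9), and the interval of SRSF11, the widest, ran from −0.38 to 0.12. SRSF5 was just outside the threshold by edgeR (SE 0.07, adjusted p = 0.051). It passed without a filter and with at least 10 counts in every library. SRSF3, SRSF5 and SRSF6 were called lower on log2(TPM + 1) and log2(TPM + 0.1), and SRSF6 also on the centred and unfiltered TPM scales.

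Among the subunits that hold the U2 particle on the branch site, 4 of 7 fell and 0 rose, with a median log2 fold change of −0.38. SF3B4 (ENSG00000143368.11, chromosome 1, 149923317 to 149927803, minus strand), which contacts the pre-mRNA next to the branch site, had 101 and 101 CPM in the control and 58.6 and 63.6 CPM in the MYCL libraries. The groups did not overlap, and its log2 fold change was −0.73 (SE 0.08, adjusted p = 0.000215). SF3A3, SF3B3 and SF3A1 fell by similar amounts, with log2 fold changes of −0.45, −0.44 and −0.38. SF3B1, the subunit that clasps the branch site and is often mutated in blood cancers, had 0.03 with an interval of −0.13 to 0.19, so a fall as large as that of SF3B4 lay outside its interval. SF3A2 had −0.01 (−0.23 to 0.21) and SF3B2 −0.14 (−0.30 to 0.01). On log2(TPM + 1) and log2(TPM + 0.1), with all-gene medians of −0.14 and −0.16, SF3B1 and SF3B2 were called lower. They were not called after centring or on TPM without a filter.

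Sm ring proteins, which make the ring on the spliceosomal RNAs, were lower in 4 of 7, with a median log2 fold change of −0.21. SNRPD1 had the largest fall, with 141 and 139 CPM in the control and 95.02 and 98.3 CPM in the MYCL libraries and a log2 fold change of −0.53 (SE 0.07, adjusted p = 0.000616). SNRPG, SNRPF and SNRPD3 also passed, at −0.29, −0.26 and −0.21, and all 3 lost their calls without either control library, SNRPD3 also without MYCL replicate 2. SNRPD2 (0.14), SNRPB (−0.11) and SNRPE (−0.18) were not called by edgeR, but SNRPE was called lower on every TPM scale tried. SNRPF also lost its call under DESeq2, and SNRPD3 with a replicate block and with the NCI-H660 libraries in the fit. None of the 3 proteins particular to U1 or U2 was called by edgeR, 0 had an unadjusted p under 0.05 and DESeq2 called 0. Their log2 fold changes were 0.07 for SNRPA, −0.19 for SNRPC and 0.11 for SNRPA1. SNRPC was called lower on log2(TPM + 1) and log2(TPM + 0.1), but not after centring or on TPM without a filter. Both U2AF subunits fell, U2AF2 by a log2 fold change of −0.56 (SE 0.08, adjusted p = 0.000699) and U2AF1, which reads the AG of the 3′ splice site, by −0.32 (SE 0.09, adjusted p = 0.0258). U2AF1 lost its call without control replicate 1 or MYCL replicate 1, and also with the NCI-H660 libraries in the fit.

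Of the PTB proteins, PTBP1 (ENSG00000011304.23, chromosome 19, 797075 to 812327, plus strand) had 211 and 215 CPM in the control and 132 and 147 CPM in the MYCL libraries, which did not overlap. It fell by a log2 fold change of −0.61 (SE 0.08, adjusted p = 0.000514). PTBP2 (ENSG00000117569.21, chromosome 1, 96721665 to 96823738, plus strand), its neuronal paralog, had 23.5 and 19.6 CPM and 19.6 and 15.8 CPM, and here the higher MYCL library lay above the lower control. Its log2 fold change of −0.28 (SE 0.14, adjusted p = 0.141) did not pass, and without MYCL replicate 1 it was −0.44 with an adjusted p of 0.0226. Lower PTBP1 was thus not accompanied by higher PTBP2 in these libraries.

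Other quantities also separated the control from the MYCL libraries. Of 14 proliferation genes (MKI67, PCNA, MCM2 to MCM7 and others), 13 fell and 0 rose, with a median log2 fold change of −0.82. Their summed level was 1596 and 1579.6 TPM in the control and 926 and 789.7 TPM in the MYCL libraries. Of the 7 luminal prostate genes, 4 fell and 1 rose, and their sums were 2313 and 2319 TPM and 1659.8 and 1518 TPM. MYC, the paralog of MYCL, had 88.2 and 91.5 TPM in the control and 53.2 and 65.7 TPM in the MYCL libraries, and mitochondrial genes took 9.67% and 9.63% and then 10.2% and 10.7% of counts. The part of these and of the greater depth of the control libraries in the lower splicing factor RNA was not tested.

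**Figure D2:**
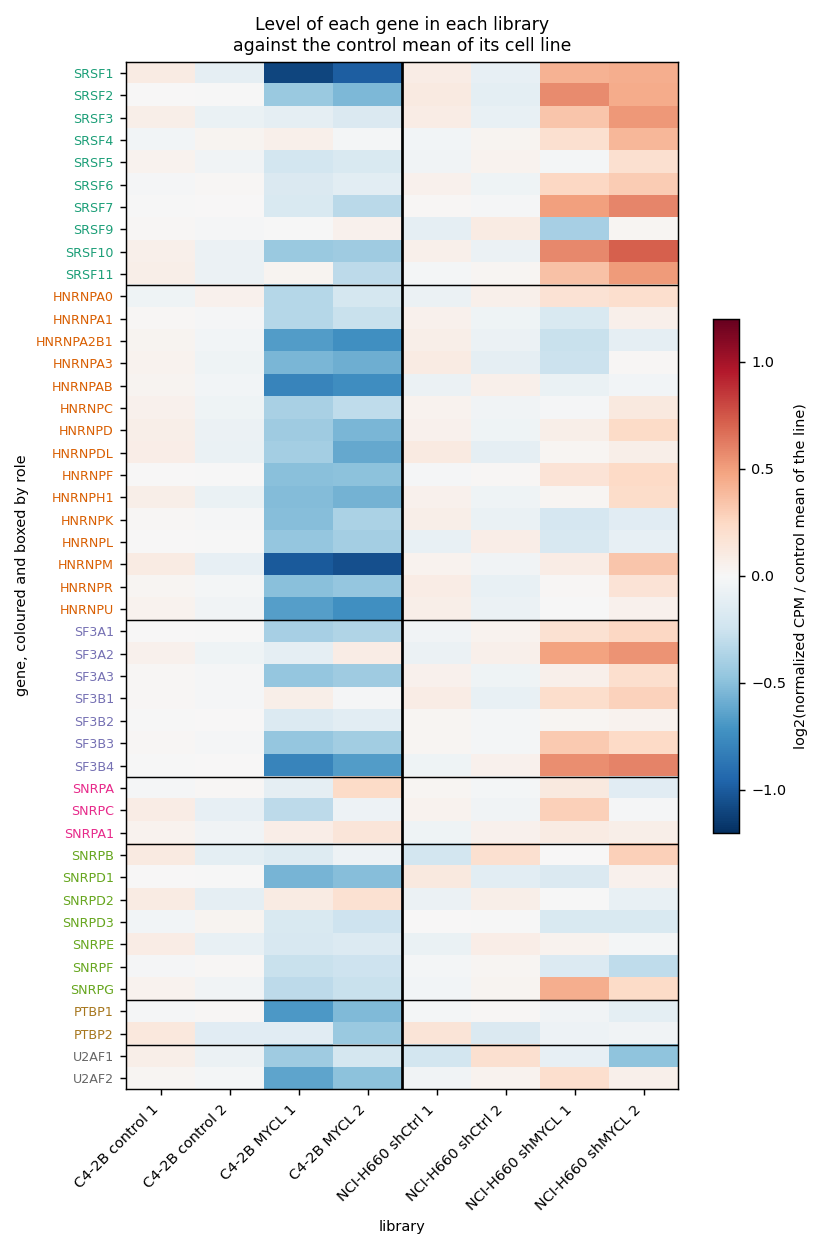
Log2 ratio of each gene's normalized CPM to the mean of the controls of its cell line (colour), with 1 row for each of the 46 genes, grouped by role, and 1 column for each of the 8 libraries. The hnRNP rows are blue in both C4-2B MYCL libraries, where all 15 fell, and paler in both shMYCL libraries, where none was called, while 6 of the 10 SR rows rose in the shMYCL libraries.

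In NCI-H660 cells, MYCL knockdown was accompanied by higher RNA of some of these genes, mostly SR proteins. Of the 46, 9 rose and 0 fell by edgeR's quasi-likelihood test, against 12.0% of the 16980 genes tested that rose and 12.7% that fell. At an unadjusted p under 0.05, 13 were higher and 0 lower, and DESeq2 called 12 higher and 0 lower. With a log2 fold change of at least 0.5 also required, 5 rose, against 7.18% of all genes, and 0 fell, against 8.99%. The median log2 fold change was 0.11, and that of all genes tested was −0.0029. Without shMYCL replicate 2, 6 rose and the median was 0.05. The number called depended on the scale: limma on log2(TPM + 1) called 5 with a filter on low values and 0 without one, although the median there was 0.15.

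Of the 10 SR proteins, 6 rose and 0 fell, with a median log2 fold change of 0.43. SRSF10 (ENSG00000188529.16, chromosome 1, 23964347 to 23980927, minus strand) had 249 and 228 CPM in the shCtrl and 356 and 392 CPM in the shMYCL libraries. The shMYCL libraries lay above both controls, and the log2 fold change was 0.65 (SE 0.11, adjusted p = 0.000452), a fold of 1.57. SRSF7 (ENSG00000115875.20, chromosome 2, 38743599 to 38751494, minus strand), an SR protein with a zinc knuckle, had 168 and 164 CPM in the shCtrl and 233 and 248 CPM in the shMYCL libraries. It rose by a log2 fold change of 0.54 (SE 0.10, adjusted p = 0.00141), without overlap. SRSF2 (ENSG00000161547.18, chromosome 17, 76734115 to 76737333, minus strand), an exon-binding SR protein mutated in myeloid neoplasms, had 258 and 219.7 CPM in the shCtrl and 355 and 326 CPM in the shMYCL libraries. Its log2 fold change was 0.51 (SE 0.11, adjusted p = 0.00351), and its exons share 27.7% of their bases with MFSD11 on the other strand. SRSF11 (ENSG00000116754.15, chromosome 1, 70205682 to 70253052, plus strand), an SR-related protein, had 166 and 172 CPM in the shCtrl and 216 and 240.1 CPM in the shMYCL libraries. Its log2 fold change of 0.43 (SE 0.10, adjusted p = 0.00695) became 0.36 with an adjusted p of 0.128 when shMYCL replicate 2 was left out. SRSF3 and SRSF1 rose too, with log2 fold changes of 0.43 (SE 0.11, adjusted p = 0.0107) and 0.42 (SE 0.11, adjusted p = 0.0088), and SRSF3 lost its call without shMYCL replicate 2. On log2(TPM + 1) and log2(TPM + 0.1), SRSF1, SRSF2 and SRSF3 lost their calls, after centring SRSF2 and SRSF3 did, and without the filter all 6 did. SRSF4 and SRSF6 were just outside the threshold, with 0.30 (SE 0.11, adjusted p = 0.0528) and 0.28 (SE 0.10, adjusted p = 0.0609), and DESeq2 called both. SRSF5 had 0.09 (−0.14 to 0.32) and SRSF9, whose exons share 43.6% of their bases with the opposite strand, −0.17 (−0.45 to 0.10).

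No hnRNP was called in the knockdown. Of the 15, edgeR called 0 in either direction, 0 had an unadjusted p under 0.05 and DESeq2 called 0. Their log2 fold changes ran from −0.18 (HNRNPA2B1) to 0.22 (HNRNPM), with a median of 0.05. The intervals were −0.42 to 0.05 for HNRNPA2B1 and −0.02 to 0.45 for HNRNPM, so smaller changes in either direction were not detectable with 2 libraries. Summed over the class, TPM was 13331 and 11793 in the shCtrl and 11536 and 13075 in the shMYCL libraries, which overlapped. For comparison, the SR proteins summed to 2906 and 2659.6 and 3398 and 3830.0 TPM, with both shMYCL libraries above both controls.

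Of the SF3A and SF3B subunits, 2 of 7 rose and all 7 had log2 fold changes above 0. SF3B4 had 82.0 and 87.8 CPM in the shCtrl and 125 and 129 CPM in the shMYCL libraries, and a log2 fold change of 0.58 (SE 0.10, adjusted p = 0.000844). SF3A2 (ENSG00000104897.11, chromosome 19, 2236824 to 2248655, plus strand), a zinc finger subunit of SF3A, had 100.1 and 109.6 CPM in the shCtrl and 147 and 152 CPM in the shMYCL libraries, and a log2 fold change of 0.51 (SE 0.10, adjusted p = 0.00232). Neither overlapped its controls. SF3B3, at 0.28 (SE 0.10, adjusted p = 0.0552), was just outside the threshold. Among the Sm ring proteins only SNRPG was called, with 0.34 (SE 0.11, adjusted p = 0.0365). Its call was lost without any one of shCtrl replicate 1, shMYCL replicate 1 and shMYCL replicate 2, and on every TPM scale tried. The other 6 Sm proteins lay between −0.24 (SNRPF) and 0.15 (SNRPB), and the U1 and U2 specific proteins between −0.01 (SNRPA) and 0.15 (SNRPC). U2AF1 had −0.27 (−0.58 to 0.03) and U2AF2 0.13 (−0.09 to 0.36), and neither was called.

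PTBP1 had 379 and 388 CPM in the shCtrl and 372 and 354 CPM in the shMYCL libraries, and PTBP2 32.2 and 25.5 CPM and 27.7 and 28.0 CPM. Neither was called, with log2 fold changes of −0.08 (interval −0.29 to 0.14) and −0.05 (interval −0.34 to 0.24). The sign for PTBP2 turned to 0.13 without shCtrl replicate 1. Of the 14 proliferation genes, 3 rose and 2 fell in the knockdown, and their summed level was 4066 and 3885 TPM in the shCtrl and 4227 and 4183 TPM in the shMYCL libraries. Of the 7 neuroendocrine genes, 2 rose and 2 fell, and they summed to 591 and 579.8 TPM and 607 and 699 TPM. MYC had 11.3 and 14.1 TPM in the shCtrl and 24.3 and 19.6 TPM in the shMYCL libraries, and mitochondrial genes took 3.525% and 3.499% and then 3.833% and 3.692% of counts. The part of these quantities in the higher SR protein RNA was not tested.

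**Figure D3:**
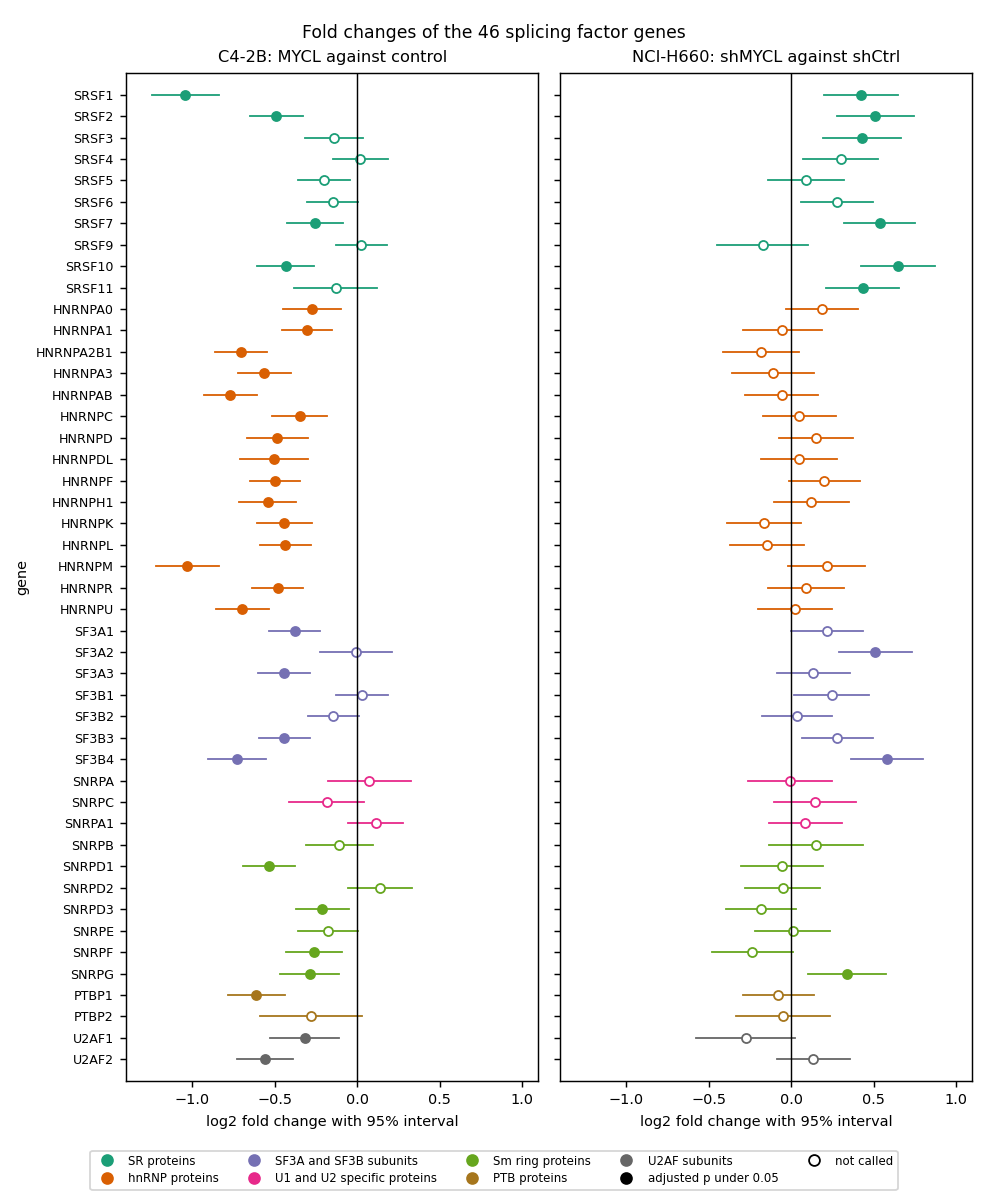
Log2 fold change with its 95% interval (horizontal axis) of each of the 46 genes (vertical axis, coloured by role) in C4-2B with MYCL against control, left, and in NCI-H660 with shMYCL against shCtrl, right. Filled points passed an adjusted p under 0.05, which was 30 lower genes on the left and 9 higher genes on the right.

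The comparisons of the 2 cell lines share no library, and the same gene was often called in only one of them. Of the 46, 6 were lower with MYCL in C4-2B and higher with shMYCL in NCI-H660, namely SRSF1, SRSF2, SRSF7, SRSF10, SF3B4 and SNRPG. A further 24, all 15 hnRNPs among them, were lower in C4-2B and not called in NCI-H660, 3 (SRSF3, SRSF11 and SF3A2) were called in NCI-H660 alone, as higher, and 13 were called in neither. Over the 14212 genes tested in both lines, the same 4 classes held 3.87%, 13.9%, 6.66% and 48.2%. Since a call in one line and not in the other does not show a difference, the difference itself was tested, as the log2 effect of high against low MYCL in C4-2B (MYCL against control) minus that in NCI-H660 (shCtrl against shMYCL), in a fit of all 8 libraries. It was lower for 16 and higher for 1 of the 46 genes, against 9.63% and 10.6% of the 19605 genes tested. At an unadjusted p under 0.05 by edgeR, 22 were lower and 4 higher, and DESeq2 called 19 lower and 1 higher. MYCL itself changed by more in C4-2B than in NCI-H660, and the part of this in the differences was not tested. Leaving out a library left between 10 and 15 lower and 0 or 1 higher, with 10 without C4-2B control replicate 1 and 10 without control replicate 2.

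Of the 15 hnRNPs, 10 had a more negative effect of high MYCL in C4-2B than in NCI-H660. All 15 differences lay under 0, 14 of them at an unadjusted p under 0.05 by edgeR, and DESeq2 called 12. HNRNPA2B1 had a log2 difference of −0.89 (SE 0.13, adjusted p = 0.00044), from −0.71 in C4-2B with MYCL and −0.18 in NCI-H660 with shMYCL. Its RNA was thus lower with MYCL in C4-2B and, without passing the test, also lower with shMYCL in NCI-H660. HNRNPAB had −0.83 (SE 0.12, adjusted p = 0.000449), HNRNPM −0.82 (SE 0.14, adjusted p = 0.00172) and HNRNPU −0.67 (SE 0.12, adjusted p = 0.00194). HNRNPA3, whose exons share 53.7% of their bases with NFE2L2 and another gene on the other strand, had 620.4 and 582 CPM in control and 411 and 401 CPM in MYCL-overexpressing C4-2B cells. In NCI-H660 it had 819 and 712 CPM with shCtrl and 642 and 775 CPM with shMYCL, which overlapped, and the log2 difference was −0.68 (SE 0.15, adjusted p = 0.00617). The remaining hnRNPs that passed, HNRNPK, HNRNPL, HNRNPDL, HNRNPH1 and HNRNPR, had differences between −0.61 and −0.40. HNRNPDL, HNRNPH1 and HNRNPR each lost the call without any one of 6 of the 8 libraries, so that without either C4-2B control library 7 of the 10 were called. HNRNPH1 and HNRNPR also lost it with a block for the replicate number, under relative log expression size factors and on log2(TPM + 0.1), centred TPM and unfiltered TPM, HNRNPH1 also on log2(TPM + 1), and HNRNPA3 lost it on log2(TPM + 1) without a filter.

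PTBP1 differed between the lines by −0.69 (SE 0.12, adjusted p = 0.0016) on the log2 scale. PTBP2, with −0.33 (SE 0.21, adjusted p = 0.293), did not pass. Of the Sm proteins SNRPD1, SNRPF and SNRPD3 passed, with −0.59, −0.50 and −0.40, and so did U2AF2 with −0.43. U2AF1, at −0.60 (SE 0.20, adjusted p = 0.0557), was just outside the threshold by edgeR, and DESeq2 called it. The calls of SNRPD3 and U2AF2 were each lost without any one of 5 of the 8 libraries, that of SNRPF without any one of 4, and that of SNRPD1 without shMYCL replicate 1. Among the SR proteins SRSF1 alone passed, with −0.62 (SE 0.14, adjusted p = 0.00779): by edgeR it was lower with high MYCL in both lines, and more so in C4-2B, although its call in NCI-H660 was lost on the TPM scales that were not centred. SF3A2, with 0.50 (SE 0.14, adjusted p = 0.0202), was the gene with a difference in the other direction, and its call was lost without any one of 6 of the 8 libraries. For the other 5 of the 6 genes called in both lines, SRSF2, SRSF7, SRSF10, SF3B4 and SNRPG, the differences were 0.02 (−0.27 to 0.31), 0.28 (0.02 to 0.54), 0.21 (−0.07 to 0.49), −0.15 (−0.41 to 0.11) and 0.05 (−0.25 to 0.34), none of which passed.

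**Figure D4:**
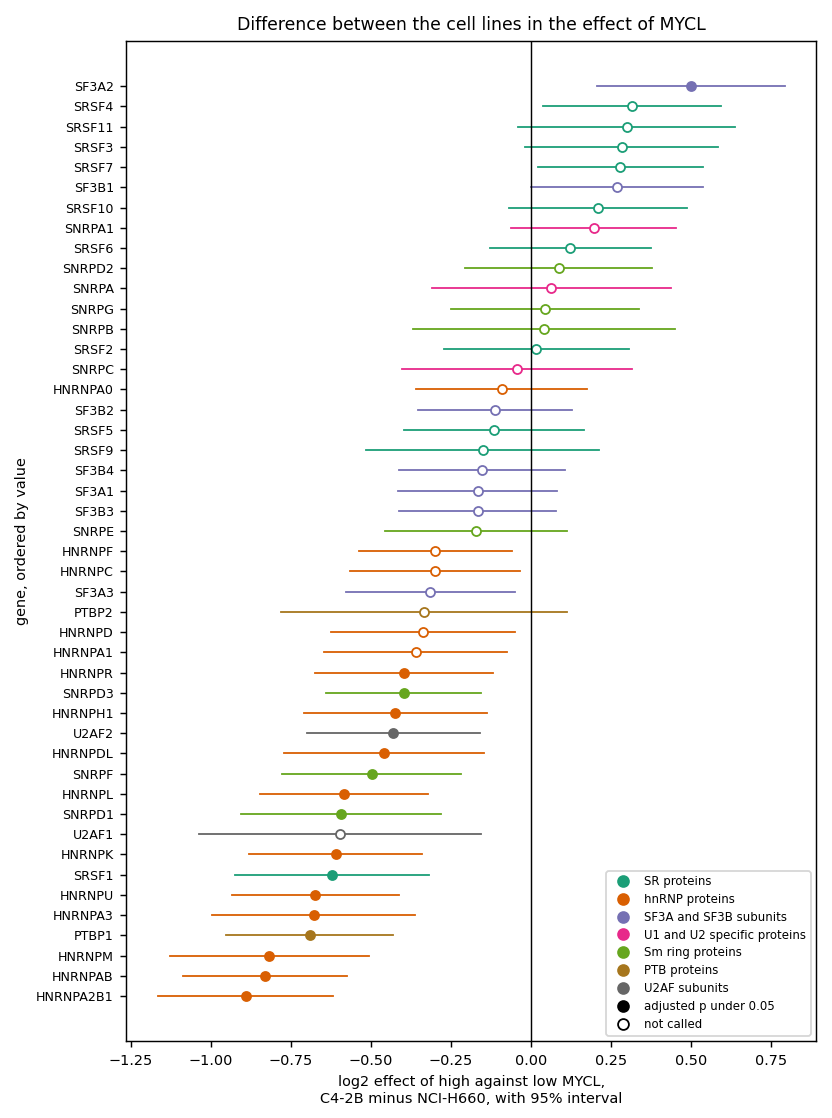
Difference between the lines in the log2 effect of high against low MYCL, C4-2B minus NCI-H660, with its 95% interval (horizontal axis), for the 46 genes ordered by value (vertical axis) and coloured by role. Filled points passed an adjusted p under 0.05. They are 16 genes under 0, 10 of them hnRNPs, and SF3A2 above 0.

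Between the controls, NCI-H660 and C4-2B differed in many of these genes, as in most of the genome. Of the 46, 17 were higher and 12 lower in shCtrl NCI-H660 than in control C4-2B cells, against 40.5% and 37.3% of all 19605 genes tested, so the share called was near that of all genes. The split depended on the scale. With limma on log2(TPM + 1), for which the all-gene median stood at 0.52, 37 were higher and 3 lower, and after centring each library on its median 11 were higher and 16 lower. The shares of all genes called on these scales are not given here. By edgeR, 10 of 15 hnRNPs were higher and 1 lower, while 4 of 7 Sm ring proteins were lower and 0 higher (1 higher at an unadjusted p under 0.05, and 1 by DESeq2). These splits also moved with the scale. On log2(TPM + 1), SNRPF and HNRNPK, the hnRNP lower by edgeR, lost their lower calls. HNRNPK had 691 and 689 TPM in control C4-2B and 942 and 807 TPM in shCtrl NCI-H660 libraries. On that scale SNRPB, SNRPD1, SNRPG, HNRNPA1, HNRNPA3, HNRNPF and HNRNPL were called higher. The 17 genes higher by edgeR and the 17 called newly there do not make up the 37, so some genes lower by edgeR were called higher. After centring, HNRNPC, HNRNPDL and HNRNPM lost their higher calls and HNRNPA1 was called lower. Line, vector and culture cannot be told apart here.

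On CPM normalized over all 4 groups, SF3A2 had 37.6 and 35.0 in control C4-2B and 94.96 and 103 in shCtrl NCI-H660 libraries, and the log2 fold change was 1.45 (SE 0.10, adjusted p = 9.25e-09). HNRNPAB had 210.2 and 199.9 and 529.7 and 576 CPM, a log2 fold change of 1.43 (SE 0.08, adjusted p = 2.76e-09). Both were higher in NCI-H660 without overlap. HNRNPA0 (172 and 185 against 359.8 and 392 CPM), HNRNPU (805 and 763 against 1497 and 1348 CPM) and HNRNPR (290.3 and 281 against 538 and 473 CPM) followed, with log2 fold changes of 1.07, 0.86 and 0.82. PTBP1 was higher in NCI-H660, with 223 and 227 and 359 and 366 CPM and a log2 fold change of 0.69 (SE 0.08, adjusted p = 5.66e-06), and PTBP2, with 24.8 and 20.7 and 30.5 and 24.1 CPM, overlapped between the lines and had 0.26 (SE 0.14, adjusted p = 0.115). These higher levels, other than that of PTBP2, passed on every scale tried, and PTBP2 passed on the TPM scales that were not centred and, at 0.43 with an adjusted p of 0.0235, without shCtrl replicate 2.

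At the other end, SNRPE had 161 and 142 CPM in control C4-2B and 65.6 and 72.9 CPM in shCtrl NCI-H660 libraries, a log2 fold change of −1.13 (SE 0.09, adjusted p = 8.85e-08). SNRPD2 had 140.5 and 122 and 66.7 and 72.9 CPM, a log2 fold change of −0.91 (SE 0.10, adjusted p = 1.1e-06). Both Sm proteins were lower in NCI-H660 under every scale. SF3B3, SRSF9 and SRSF11, with log2 fold changes of −0.73, −0.73 and −0.65, were lower by edgeR, but on log2(TPM + 1) they had −0.11, −0.18 and −0.11 and did not pass.

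The 118 other splicing genes of a compiled list gave the setting for the 46. With MYCL in C4-2B, 55 fell and 8 rose, with a median log2 fold change of −0.20, and with shMYCL in NCI-H660 18 rose and 1 fell, with a median of 0.10. The shares were 46.6% lower and 6.78% higher in C4-2B, against 17.4% and 17.6% of all genes tested, and 15.3% higher and 0.847% lower in NCI-H660, against 12.0% and 12.7%, so the share that rose in the knockdown was near that of all genes. By group, the falls in C4-2B took in 11 of 16 proteins of the U5 and U4/U6 particles, 8 of 17 other U1 and U2 proteins, 7 of 11 Sm assembly factors, 4 of 7 LSM proteins, 8 of 15 other hnRNP-like proteins, 6 of 15 SR kinases and SR-related proteins, 3 of 8 exon junction proteins, 5 of 20 PRP19 complex and catalytic factors and 3 of 9 minor spliceosome proteins. GEMIN5 and GEMIN4, of the complex that loads Sm proteins, had −0.9996 (SE 0.10, adjusted p = 0.000204) and −0.95 (SE 0.08, adjusted p = 9.93e-05). TRA2A, an SR-like activator of exons, had 76.5 and 71.1 CPM in the control and 41.7 and 41.4 CPM in the MYCL libraries, a log2 fold change of −0.83 (SE 0.08, adjusted p = 0.000152). These were the largest falls of the list. The largest rises were CLK3, a kinase of SR proteins, with 0.71 (SE 0.09, adjusted p = 0.000443), DDX41, a helicase, with 0.51 (SE 0.08, adjusted p = 0.00164) and ZMAT5, of the minor spliceosome, with 0.51 (SE 0.14, adjusted p = 0.0194).

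Against the 12.0% of all genes that rose in the knockdown, the rises took in 5 of 15 SR kinases and SR-related proteins, 4 of 17 other U1 and U2 proteins, 3 of 16 proteins of the U5 and U4/U6 particles, 2 of 20 PRP19 complex and catalytic factors, 2 of 9 minor spliceosome proteins, 1 of 11 Sm assembly factors, 1 of 15 other hnRNP-like proteins, and, by edgeR, 0 of the 7 LSM and 8 exon junction proteins, of which 0 and 1 had an unadjusted p under 0.05 and DESeq2 called 0 and 1. A count near that share is no result about the group. RNPC3, which belongs to the minor spliceosome, had 13.3 and 10.6 CPM with shCtrl and 29.5 and 28.7 CPM with shMYCL, a log2 fold change of 1.29 (SE 0.15, adjusted p = 1.85e-05). TRA2B, the paralog of TRA2A, had 281 and 252 and 431 and 413 CPM, a log2 fold change of 0.66 (SE 0.11, adjusted p = 0.000339), and LUC7L3, a U1-associated protein, had 0.60 (SE 0.11, adjusted p = 0.00105). CLK3 was the 1 gene of the list that fell, from 33.8 and 41.9 to 26.1 and 24.1 CPM, with −0.59 (SE 0.13, adjusted p = 0.00464). CLK3 was thus higher with high MYCL in both lines, the opposite direction to SRSF1, SRSF2, SRSF7, SRSF10, SF3B4 and SNRPG.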

How the data were processed

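Gene tables of 8 poly(A)-selected, paired-end RNA libraries were used. The authors deposited estimated counts per gene (of the values above 0, 28.1% hold decimals), without normalization between libraries, which were rounded to whole numbers for the tests. They also deposited TPM values, described in the paper as counts divided by gene length and scaled per library. The length was not fixed per gene. From C4-2B control replicate 1 to MYCL replicate 1, HNRNPK went from 38857 to 15361 counts and from 691 to 456 TPM. HNRNPDL went from 7451 to 3027 counts and from 215 to 114 TPM. TPM differences between libraries thus hold the length used as well as the counts. The submitters' notes name hg38. The aligner, the counting tool and whether counting used strand are not given in the sources used here. Exons of 8 of the 46 genes share over 10% of their bases with another gene in GENCODE 44, so reads could be split there, and summing rows that look like copies or pseudogenes (202 rows for 29 of the genes, at most 1.33% of a gene's counts) changed no call.

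The members, gene lists and tests were chosen with earlier results of these data known. Each line was fitted on its own, and the difference between the lines and the control comparison were fitted on all 8 libraries, by the quasi-likelihood test of edgeR 4.0.16 (R 4.3.3), after filterByExpr and TMM. Benjamini-Hochberg adjustment ran over all genes tested, calls were made at an adjusted p under 0.05, and intervals are 95%. Normalized CPM is on the TMM-adjusted library size. Full values are given for the 6 largest called rises and falls within each line, the 6 largest called differences between the lines, the 5 at each end between the controls, and PTBP1 and PTBP2. For the other splicing genes, the 3 largest called rises and falls in each line are named. A few genes of the marker and splicing lists are not reported here. Other genes named were chosen after their values were seen. Alternatives were relative log expression size factors, DESeq2 1.42.0, no filter or at least 10 counts in every library, other libraries in the fit, a replicate block, limma 3.58.1 on log2(TPM + 1) or log2(TPM + 0.1), either unfiltered, centred on each library's median, or limited to genes at or above 1 TPM in 2 libraries, copies summed, a log2 fold change of at least 0.5, and each library left out. Replicates of a group differed by more than counting noise, so all 8 were counted, and replicate numbers did not pair libraries (r of deviations 0.026 and 0.021). The 95% intervals and the biological coefficient of variation (0.083 in C4-2B and 0.097 in NCI-H660) give the precision. Python 3.11.15 was used for tables and figures.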

Additional observations from a re-analysis of the deposited data

Results flagged for a closer look

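The effect of high against low MYCL differed between C4-2B and NCI-H660 cells in 17 of the 46 genes, by a test of the difference itself (edgeR's quasi-likelihood test on all 8 libraries, adjusted p under 0.05), with 16 lower and 1 higher against 9.63% and 10.6% of all 19605 genes tested. Without either C4-2B control library 10 were lower. Each value is the log2 effect in C4-2B minus that in NCI-H660. Among the hnRNPs the values were −0.89 for HNRNPA2B1, −0.83 for HNRNPAB, −0.82 for HNRNPM, −0.68 for HNRNPA3, −0.67 for HNRNPU, −0.61 for HNRNPK, −0.58 for HNRNPL, −0.46 for HNRNPDL, −0.42 for HNRNPH1 and −0.40 for HNRNPR. Among the other genes they were −0.69 for PTBP1, −0.62 for SRSF1, −0.59 for SNRPD1, −0.50 for SNRPF, −0.43 for U2AF2 and −0.40 for SNRPD3. SF3A2 was the gene with a positive value, 0.50. The line, the vector system and the direction of the MYCL change cannot be told apart in these differences.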

How the results depend on the processing

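With 2 libraries per group, the depth and the spread limit what could be called. Of the named genes' values under the alternatives, those that kept their direction and their side of the threshold were 119 for MYCL overexpression, with 1 newly past it, 109 for the knockdown, with 10 no longer past it, 125 for the difference between the lines, with 1 no longer past it, and 167 between the controls, with 9 no longer and 4 newly past it. One value turned its sign, PTBP2 in the knockdown, with −0.21 to 0.13 over the libraries left out and 0.13 without NCI-H660 shCtrl replicate 1. With the replicate block, 29 genes were lower in C4-2B instead of 30, 9 were higher in NCI-H660, the difference was lower for 14 instead of 16, and the controls gave the same 17 and 12. The libraries share replicate numbers without deviating together, so the numbers are no pairing.

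On log2(TPM + 1), log2(TPM + 0.1) and log2(TPM + 1) without a filter, the median of the 46 genes was −0.46, −0.46 and −0.46 for overexpression and −0.39, −0.39 and −0.39 for the difference, where the median of all genes moved to −0.14, −0.16 and −0.03 and to −0.11, −0.12 and −0.03. The knockdown gave 5, 5 and 0 higher genes instead of 9, and the difference 0 higher genes without the filter instead of 1. Between the controls the same scales gave 37, 37 and 36 higher genes instead of 17, 3 lower each time instead of 12, and medians of 0.67, 0.67 and 0.67 instead of 0.10, and centring gave 11 higher and a median of −0.082. Shares of all genes called are not given here for the TPM scales, nor at the 0.5 minimum for the difference and the controls. A log2 fold change of at least 0.5 left 12 lower genes in C4-2B, 5 higher in NCI-H660, 10 lower for the difference and 7 lower between the controls. The cause of these shifts was not tested beyond the construction of each scale. With each library left out in turn, overexpression gave 22 to 31 lower genes and a median of −0.40 to −0.32, the knockdown 6 to 11 higher and 0 to 1 lower and a median of 0.05 to 0.15, the difference 0 to 1 higher and 10 to 15 lower and a median of −0.35 to −0.19, and the controls 12 to 20 higher and 10 to 12 lower and a median of 0.09 to 0.14. The 1 gene lower in the knockdown was U2AF1, without shCtrl replicate 1 or shMYCL replicate 1.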

Other observations

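Groups of other splicing genes differed between the control cells of the lines, as a share of genes that may be set against 40.5% higher and 37.3% lower of all genes tested. Of 15 other hnRNP-like proteins, 11 were higher and 2 lower in shCtrl NCI-H660 than in control C4-2B cells by edgeR, and their median was 0.71 on the log2 scale. Of 11 Sm assembly factors, 7 were lower and 0 higher (0 at an unadjusted p under 0.05 and 0 by DESeq2), with a median of −0.56. These counts were not recomputed on the TPM scale, on which the median of all genes was 0.52.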
